A study of Mus musculus with 20 samples.

Results

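miR-671 is a microRNA whose precursor hairpin gives a mature strand from each side, miR-671-5p and miR-671-3p. Both strands were followed by name in 20 small RNA libraries of mouse cortical neurons, as 2 of the 1481 mature microRNA entries measured and as 1 of the 489 precursors with an entry for each arm. The neurons came from mouse cortices at embryonic day 15 and were cultured for 7 days. They were wild type (WT) or lacked the circular RNA ciRS-7 (KO, also called Cdr1as knockout). They were then kept for 12 h under 1 of 2 conditions. Normoxia (N) was 37 °C and 5% CO2 with glucose at 25 mM and pyruvate at 0.2 mM. Oxygen-glucose deprivation (OGD), a culture model of ischaemia, was 1% O2, also at 37 °C and 5% CO2, in medium without added glucose. A pyruvate level is not given for OGD, nor an O2 level for normoxia. The 4 groups, written N WT, OGD WT, N KO and OGD KO, had 5 biological replicates each. The same strain label, C57BL/6N-Cdr1asem1Nikr, stands on all 20 samples, wild type included, and only the genotype label separates WT from KO. ciRS-7 itself is not an entry of these small RNA tables, so its loss was not checked here.

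A microRNA hairpin is cut from its primary transcript by Drosha and then by Dicer, which leaves a short duplex of the 5′ arm (5p) and the 3′ arm (3p). An Argonaute protein keeps one strand as the guide, and the other strand is usually degraded, so the ratio of the arms reads out both strand choice and strand stability. In brain, miR-671 is known for a nearly perfect site in ciRS-7, a neuronal circular RNA that also carries many miR-7 sites, and miR-671 is known to direct the cleavage of ciRS-7 by Argonaute2. The study was designed around that network in stroke, and the comparisons below ask how each miR-671 arm, and their ratio, differed with OGD and with the loss of ciRS-7.

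The mature strands are shown first because the results differ by arm. They are the RefSeq sequences on build GRCm38.p6, 5′ to 3′, and capitals mark the seed, bases 2 to 8, the stretch that pairs with targets.
mmu-miR-671-5p: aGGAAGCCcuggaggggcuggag
mmu-miR-671-3p: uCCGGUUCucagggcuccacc
The 5p strand lies on the plus strand at chr5:24592132-24592154 and the 3p strand at chr5:24592171-24592191, within a hairpin of 98 bases at chr5:24592114-24592211. The hairpin sits in an exon, not an intron: it falls in the coding part of exon 4 of Chpf2, which runs on the same strand from 24591069 to 24592361. On the opposite strand, exon 12 of a Smarcd3 transcript also covers it. The 5p strand begins with A and has 16 G or C among its 23 bases (69.6%). The 3p strand begins with U and has 14 G or C among its 21 bases (66.7%). RNAfold gave the hairpin a minimum free energy of -55 kcal/mol and paired 19 of the 23 bases of 5p and 20 of the 21 bases of 3p. Neither seed was shared with any other of the 1679 mature mouse sequences in the RefSeq table.

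The stretch of ciRS-7 with the most bases complementary to miR-671-5p is shown because it is the basis of the network under study. It is written as DNA on build GRCm38, 5′ to 3′, and capitals mark the bases complementary to miR-671-5p.
ciRS-7 site for miR-671-5p: tTCCAGCatCTCCAGGGCTTCCa
The site lies at chrX:61186029-61186051 on the plus strand, in exon 6 of a C230004F18Rik transcript, an exon of 2927 bases that holds the reverse complement of the annotated Cdr1 transcript. All 7 seed bases and 19 of the 23 bases of miR-671-5p were complementary to it (82.6%). No other mature sequence of the 1679 reached that share without gaps in this exon, and the next was miR-200b-5p with 17 of 22 bases (77.3%). For miR-671-3p the best stretch had 11 of 21 bases (52.4%), and it ranked 1229 among the 1679 mature sequences. A match of letters is a description, and cleavage was not measured in these libraries.

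The libraries held 1160582 to 12477032 reads assigned to microRNAs, a 10.8-fold range, and OGD libraries were shallower, with group medians of 1992517 and 2552651 against 8208163 and 8854518 in normoxia. A floor of 3 reads corresponded to 0.249 to 2.55 CPM (read counts scaled to a common library size), and no miR-671 value lay under it. Summed levels of 4 neuronal microRNA markers were 287537 to 385903 CPM in every library, against 4.39 to 12.8 CPM for 2 oligodendrocyte and 0.867 to 5.59 CPM for 5 microglia and blood markers. Markers of vascular and mural cells summed to 288 to 431 CPM over 3 entries, and no marker was at 0 in every library of a group. The oligodendrocyte sum was 4.53 to 7.55 CPM in N WT, 5.10 to 10.8 in OGD WT, 4.39 to 6.54 in N KO and 6.78 to 12.8 in OGD KO. The microglia and blood sum was 0.867 to 3.02 CPM in N WT, 1.21 to 5.10 in OGD WT, 1.78 to 2.71 in N KO and 2.08 to 5.59 in OGD KO, and 1 to 4 of its 5 markers had at most 3 reads in every library of a group. The sum of 2 muscle markers was 32.5 to 49.5 CPM in N WT, 27.1 to 39.8 in OGD WT, 39.4 to 47.6 in N KO and 34.8 to 50.4 in OGD KO, and 1 liver marker stood at 38.1 to 64.5 CPM. The part of these cell types in the results was not tested. N WT replicate 5 stood apart: on the first principal component, with 83% of the variance over 423 entries, it lay at -0.88, between the other N WT libraries (-14.46 to -13.09) and the OGD libraries (7.00 to 15.05). The N KO libraries spread over -14.46 to -6.46 on that component, with replicates 2, 4 and 5 (-6.61, -6.46 and -9.69) the closest of them to OGD. Differences of the arms, of their ratio and of their sum that include N WT replicate 5 are also given without it. These are bulk cultures, so fewer cells of a type and less RNA per cell cannot be told apart.

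Both arms were rare microRNAs in these neurons, and 3p was the more abundant arm in normoxia. Ranked by CPM among the 1481 entries, the median position of 3p was 303 in N WT and 304 in N KO, and 430 in OGD WT and 397 in OGD KO. For 5p the median positions were 412, 405, 437 and 421 in the same order. Read numbers behind these levels were small, with 60 to 363 reads of 3p in normoxia and 11 to 46 after OGD, and with 17 to 92 and 9 to 45 reads of 5p.

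miR-671-3p fell after OGD in neurons of both genotypes. In N WT its levels in replicates 1 to 5 were 31.5, 30.1, 21.5, 25.5 and 22.7 CPM (26.3 ± 4.42, SD, n = 5). In OGD WT they were 10.8, 8.84, 9.34, 9.04 and 13.1 CPM (10.2 ± 1.76, SD, n = 5). The highest OGD library was well under the lowest normoxic library, so the groups did not overlap. The log2 difference was -1.32 (SE 0.19, 95% interval -1.71 to -0.93) with an adjusted p of 3.12e-05 from limma on log2(CPM + 0.5), a scale that slightly understates changes of rare entries. Only 8 of 1478 entries had a lower log2 difference. Called lower in this comparison, at an adjusted p under 0.05, were 65 entries (4.4%), and the levels of 16% of entries did not overlap between the groups. Without N WT replicate 5, the difference was -1.37 with a limma adjusted p of 1.13e-05.

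The fall of 3p was of like size in KO neurons. Its levels in N KO were 30.2, 26.9, 31.03, 27.6 and 26.7 CPM (28.5 ± 1.99, SD, n = 5). Its levels in OGD KO were 9.43, 12.9, 11.2, 15.97 and 13.4 CPM (12.6 ± 2.46, SD, n = 5). Again each OGD library was under each normoxic library. The log2 difference was -1.17 (SE 0.15, 95% interval -1.49 to -0.85), with a limma adjusted p of 1.85e-05, and 8 of 1479 entries had a lower value. Called lower were 85 entries (5.75%), and 19.1% of entries did not overlap.

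miR-671-5p, the arm with the ciRS-7 site, did not fall in CPM with its partner. In N WT it stood at 6.30, 6.25, 6.69, 8.88 and 6.42 CPM (6.91 ± 1.12, SD, n = 5). In OGD WT it stood at 8.11, 9.24, 7.65, 9.74 and 5.52 CPM (8.05 ± 1.64, SD, n = 5). The groups overlapped, with 2 of 5 OGD libraries above every normoxic library and 1 below all of them. The log2 difference of 0.19 (SE 0.22, 95% interval -0.27 to 0.66) was within the spread between replicates, with a limma adjusted p of 0.562. Without N WT replicate 5, it was 0.17 with a limma adjusted p of 0.615. Its sign rested on the scaling and turned to -0.37 (limma, adjusted p = 0.283) when libraries were centred on their median entry. With thinned libraries it was 0.47 (limma, adjusted p = 0.301).

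In KO neurons 5p was higher after OGD in CPM, but this call was not stable. In N KO it stood at 5.41, 7.39, 6.82, 8.60 and 8.01 CPM (7.25 ± 1.23, SD, n = 5). In OGD KO it stood at 8.45, 10.3, 10.8, 15.6 and 10.03 CPM (11.04 ± 2.71, SD, n = 5). OGD KO replicate 4 was the highest of the 20 libraries, 4 of 5 OGD libraries lay above every normoxic library, and the groups overlapped in 1 library. The log2 difference was 0.56 (SE 0.19, 95% interval 0.15 to 0.97) with a limma adjusted p of 0.0438, in a comparison where 278 of 1479 entries (18.8%) were called higher. With libraries centred on their median entry it was 0.052 (limma, adjusted p = 0.890), and with total reads as library size 0.55 (limma, adjusted p = 0.07). The call was kept in 2 of the 10 fits that left out 1 library and lost in the other 8, without any of N KO replicates 1, 2, 3 and 5 or OGD KO replicates 2, 3, 4 and 5, with adjusted limma p-values up to 0.108. With every library thinned to 1160582 reads, it was 1.01 (limma, adjusted p = 0.012).

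How the scale enters can be stated from the library medians. Among entries with a mean log2 level of at least 3, the median entry of a library was higher in OGD than in normoxia by 0.56 in WT (425 entries) and by 0.51 in KO (420 entries). The 3p log2 difference centred on those medians was -1.88 in WT and -1.68 in KO. The 5p log2 difference relative to them was -0.37 in WT and 0.052 in KO, so 5p was not shown to rise relative to the library medians. The median log2 difference of those entries was smaller, at 0.22 in WT and 0.20 in KO. Beside it, the 5p difference in CPM was 0.19 in WT, above 38.2% of all entries, and 0.56 in KO, above 77.3%. Centring also turned the balance of all calls, from 276 higher and 65 lower to 108 higher and 265 lower in WT, and from 278 and 85 to 112 and 324 in KO. Quantile normalization gave 141 higher and 191 lower in WT, and 141 and 186 in KO.

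**Figure D1:**
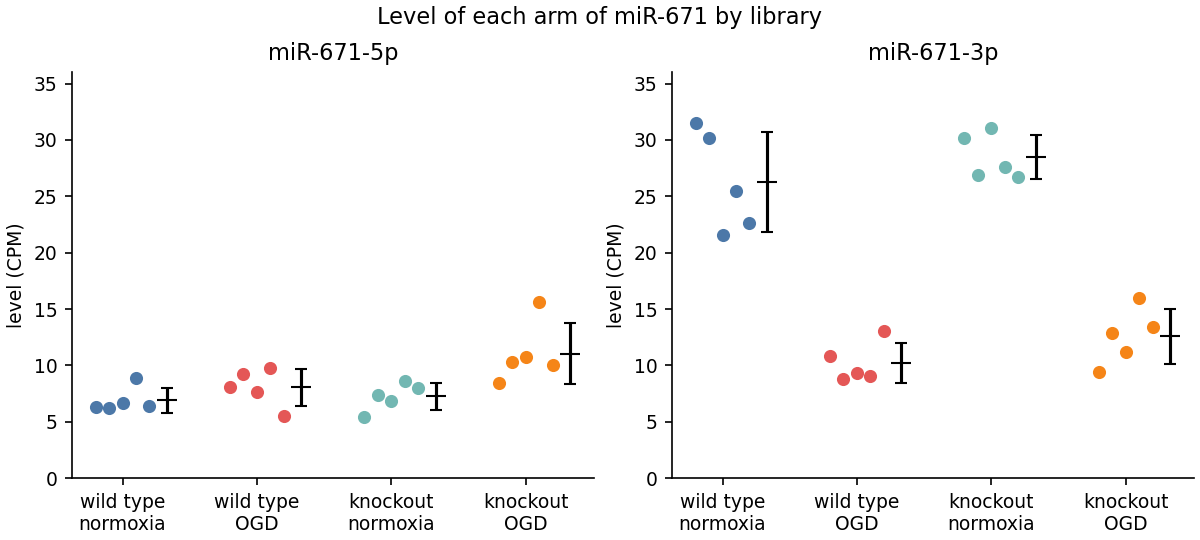
Levels of miR-671-5p and miR-671-3p in CPM (linear axes) in each of the 20 libraries, by group, with points for libraries and bars for the mean and SD of 5. The 3p arm lay between 21.5 and 31.5 CPM in normoxia and between 8.84 and 15.97 CPM after OGD, while the 5p groups overlapped and the sign of the 5p difference in WT depended on the scaling.

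The ratio of the arms needs no scaling between libraries, since both arms are counted in the same library. In N WT there were 0.2, 0.207, 0.31, 0.348 and 0.283 reads of miR-671-5p per read of miR-671-3p in replicates 1 to 5 (0.27 ± 0.0647, SD, n = 5). In OGD WT there were 0.75, 1.05, 0.818, 1.08 and 0.423 (0.823 ± 0.264, SD, n = 5). Every OGD library was above every normoxic library. OGD WT replicate 5, at 0.423, was the lowest of the OGD libraries and the closest to normoxia. As a share of miR-671 reads, 5p made up 21.1% ± 4.03 in N WT and 44.1% ± 8.92 in OGD WT (SD, n = 5).

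The log2 ratio of 5p to 3p rose by 1.51 after OGD in WT (SE 0.26, 95% interval 0.98 to 2.05), a 2.86-fold shift towards 5p, with a limma adjusted p of 9.74e-05 over 487 precursors. An exact two-sided permutation test over the 10 libraries gave p = 0.00794, the smallest value that 5 against 5 libraries allow, and 0.0159 after adjustment over 4 comparisons. Of all precursors, 54 (11.1%) were called towards 5p, and 15.2% had ratios that did not overlap. Without N WT replicate 5 the log2 rise was 1.54 (limma, adjusted p = 8.38e-05), and without OGD WT replicate 5 it was 1.72 (limma, adjusted p = 8.81e-06).

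The ratio moved in the same direction in KO neurons. N KO had 0.179, 0.275, 0.22, 0.312 and 0.3 reads of 5p per read of 3p (0.257 ± 0.0562, SD, n = 5). OGD KO had 0.897, 0.8, 0.964, 0.978 and 0.75 (0.878 ± 0.1, SD, n = 5). There was no overlap, and the 2 arms were close to equal in number after OGD. The share of 5p was 20.3% ± 3.63 in N KO and 46.6% ± 2.89 in OGD KO (SD, n = 5). The log2 ratio rose by 1.73 (SE 0.18, 95% interval 1.35 to 2.11), a 3.32-fold shift, with a limma adjusted p of 1.82e-07 over 488 precursors and an exact permutation p of 0.00794 (adjusted 0.0159). Here 53 precursors (10.9%) were called towards 5p, and 16.2% did not overlap. With every library thinned once to 1160582 reads, the log2 rise was 2.55 in KO (limma, adjusted p = 8.28e-05) and 1.78 in WT (limma, adjusted p = 0.00317), from 4 to 8 reads of 5p in each thinned N KO library.

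**Figure D2:**
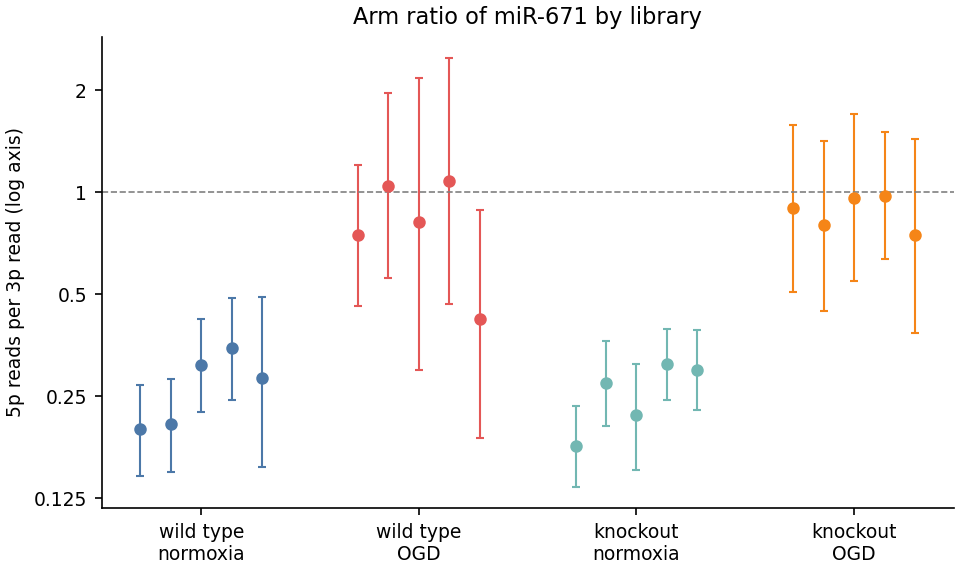
Reads of miR-671-5p per read of miR-671-3p in each of the 20 libraries (log axis), by group, with 95% exact binomial intervals that cover counting error only. Normoxic libraries lay between 0.179 and 0.348 and OGD libraries between 0.423 and 1.08.

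The spread of the ratio between replicates was compared with the spread that counting alone gives. In OGD WT replicate 3, with 9 reads of 5p and 11 of 3p, the ratio of 0.818 had an exact 95% interval of 0.3 to 2.17. In OGD WT replicate 5, with 11 and 26 reads, the ratio of 0.423 had an interval of 0.189 to 0.886. Over a group, the SD of the log2 ratio was 0.51 in OGD WT, where counting alone gives 0.51, and 0.16 in OGD KO, where counting alone gives 0.39. In normoxia it was 0.34 against 0.27 in N WT and 0.32 against 0.20 in N KO. Each of these SDs is a single estimate from 5 cultures. Reads are not independent molecules, as no molecular identifiers are mentioned, and these intervals cover counting error only.

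Depth moved with the ratio: OGD libraries were shallower and had higher ratios of 5p to 3p. The shallowest normoxic library, N WT replicate 5 with 2492065 reads, had a ratio of 0.283, inside the range of the other N WT libraries. The deepest OGD library, OGD WT replicate 1 with 4374002 reads, had a ratio of 0.75. In 1 random thinning to equal depth, which left 3 to 20 reads of 5p in a library, the shift was 1.78 in WT and 2.55 in KO on the log2 scale. The part of depth in the shift was not tested further.

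**Figure D3:**
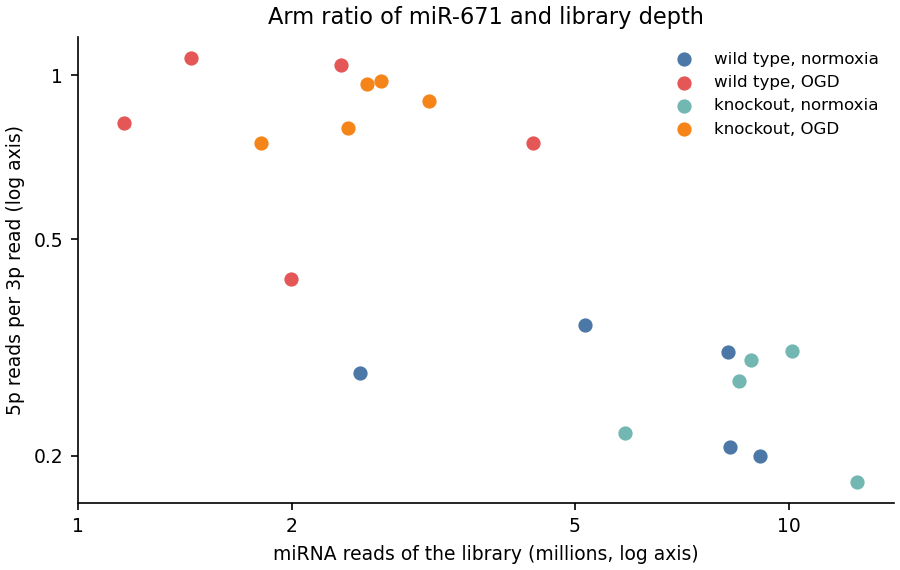
Reads of miR-671-5p per read of miR-671-3p (log axis) against total microRNA reads in each library (log axis), coloured by group. The shallowest normoxic library has a ratio of 0.283 and the deepest OGD library 0.75.

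The level of both arms together, in CPM, was lower after OGD. Both arms summed to 33.2 ± 4.31 CPM in N WT and 18.3 ± 0.782 CPM in OGD WT (SD, n = 5). They summed to 35.7 ± 1.39 CPM in N KO and 23.6 ± 4.99 CPM in OGD KO (SD, n = 5). Neither pair of groups overlapped, with each OGD library lower. Over all precursors the summed arms did not overlap in 22.2% in WT and 25% in KO, and were lower after OGD without overlap in 2.67% and 4.51%. The log2 differences were -0.83 in WT and -0.61 in KO, each with an exact permutation p of 0.00794 (adjusted 0.0159 over 4 comparisons). Centred on the library medians they were -1.40 in WT and -1.12 in KO. Without N WT replicate 5 the WT value was -0.88 (adjusted exact permutation p = 0.0317). By arm, the 3p mean fell from 26.3 to 10.2 CPM in WT, while the 5p mean was 6.91 CPM in N WT and 8.05 CPM in OGD WT.

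Loss of ciRS-7 in normoxia went with no detectable difference in either arm. The 5p arm, which has the site in ciRS-7, differed by 0.06 on the log2 scale between N KO and N WT (SE 0.17, 95% interval -0.30 to 0.42, limma, adjusted p = 0.990). The 3p arm differed by 0.13 (SE 0.13, 95% interval -0.15 to 0.40, limma, adjusted p = 0.984). The log2 ratio of the arms differed by -0.07 (SE 0.20, 95% interval -0.49 to 0.35, limma, adjusted p = 0.976), and both arms together by 0.11 (exact permutation p = 0.310). All 4 quantities overlapped between genotypes, as did the levels of all but 0.54% of entries and the ratios of all but 0.204% of precursors. The 95% intervals of both arms still include log2 differences of 0.40, so small changes of either arm were not detectable here. Without N WT replicate 5, the log2 differences were 0.04 for 5p, 0.08 for 3p, -0.04 for the ratio and 0.07 for both arms together (exact permutation p = 0.619). With thinned libraries they were 0.11, 0.33, -0.22 and 0.29 in the same order, none of them past the threshold.

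After OGD, both arms were somewhat higher in KO than in WT, without passing the test over all entries. The 5p arm was higher by 0.43 on the log2 scale (SE 0.24, 95% interval -0.07 to 0.93, unadjusted p = 0.0905 and adjusted p = 0.704 by limma), and 4 of 5 OGD KO libraries lay above every OGD WT library. The 3p arm differed by 0.28 (SE 0.23, 95% interval -0.18 to 0.74, limma, adjusted p = 0.858), with 2 of 5 KO libraries above every WT library. With thinned libraries the log2 difference was 0.66 for 5p (limma, unadjusted p = 0.00554, adjusted p = 0.429) and 0.10 for 3p (limma, adjusted p = 0.861). With the deposited extremes not restored it was 0.34 for 5p (limma, unadjusted p = 0.00997, adjusted p = 0.108) and 0.31 for 3p (limma, unadjusted p = 0.0186, adjusted p = 0.158). Summed over both arms, the log2 difference was 0.34, a 1.26-fold higher level in KO, with an exact permutation p of 0.0397 and 0.0529 after adjustment over 4 comparisons, and 4 of 5 KO libraries above every WT library. That adjusted p lay under 0.05 in each of 4 alternatives tried, at 0.0106 to 0.0423, and in 1 of the 10 fits without a library, the one without OGD KO replicate 1 (0.43, adjusted exact permutation p = 0.0212). The ratio itself differed by 0.15 (SE 0.25, 95% interval -0.35 to 0.64, limma, adjusted p = 0.898). It was 0.55 with thinned libraries (limma, unadjusted p = 0.0689, adjusted p = 0.783), 0.038 with the deposited extremes not restored and -0.061 without OGD WT replicate 5. Levels did not overlap in 0.945% of entries and ratios in 1.64% of precursors, or 2.96% of those with a mean log2 level of at least 2 for both arms.

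The difference between genotypes in the OGD response was tested as an interaction over all 20 libraries and was not detected for miR-671. It was 0.37 for 5p (SE 0.28, 95% interval -0.21 to 0.94), 0.15 for 3p (SE 0.23, 95% interval -0.32 to 0.62) and 0.21 for the log2 ratio (SE 0.32, 95% interval -0.43 to 0.86), with adjusted limma p-values of 0.990, 0.990 and 0.971. Without N WT replicate 5 these were 0.39, 0.20 and 0.19. The ratio interaction moved widely, to 0.006 without OGD WT replicate 5, 0.0995 without N KO replicate 1, 0.12 without N WT replicate 4 and 0.77 with thinned libraries, none of them called by limma. The 3p interaction was 0.063 without OGD KO replicate 4 and -0.23 with thinned libraries. No entry was called (0%) in the interaction or in either genotype comparison by limma or by limma voom. At an unadjusted limma p under 0.05 there were 74 of 1481 entries (5%) in the interaction, 47 (3.17%) in normoxia and 108 (7.29%) after OGD, and miR-671 was in none of these counts. For the arm ratio no precursor was called either (0%), with 29 (5.93%), 21 (4.29%) and 40 (8.18%) of 489 at an unadjusted limma p under 0.05.

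**Figure D4:**
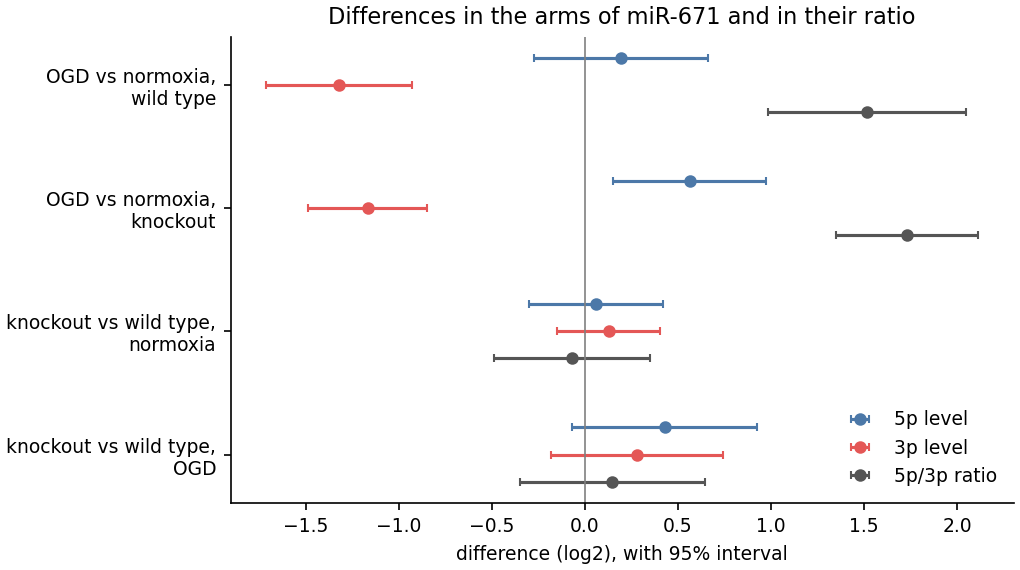
Log2 differences of miR-671-5p, miR-671-3p and the ratio of 5p to 3p in 4 comparisons, with 95% limma intervals and a line at 0. The ratio differs from 0 by 1.51 and 1.73 with OGD, and the intervals of all genotype differences include 0. The 5p difference with OGD drops to -0.37 (WT) and 0.052 (KO) when libraries are centred on their median entry.

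Arm shifts were common among precursors after OGD, and miR-671 was among the larger ones towards 5p. Over all precursors it held position 14 from the top of 487 in WT and position 8 of 488 in KO, but many of those above it had an arm with few reads. Among precursors with a mean log2 level of at least 2 for both arms, miR-671 held position 4 of 132 in WT, between miR-770 (1.59) and miR-345 (1.50), with miR-30b at the top (1.90). It held position 1 of 131 in KO, ahead of miR-770 (1.68). In that set 69 precursors (52.3%) were called in WT, 35 of them (26.5%) towards 5p, and 73 (55.7%) were called in KO, 34 of them (26%) towards 5p. Ratios did not overlap in 37.9% and 43.5% of the set, so a shift of the arms as such was not particular to miR-671. The differences between miR-671 and its neighbours in this order are small beside its standard errors of 0.26 and 0.18. The comparisons with OGD in WT and in KO share no libraries.

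In this set, 42 of the 69 calls in WT and 45 of the 73 in KO were towards the arm that was rarer in normoxia, as for miR-671, and the other 27 and 28 were towards the more abundant arm. The more abundant arm changed in 7 precursors in each genotype. miR-671 was not one of these by group means, since 3p stayed at or above 5p in both OGD groups; by single libraries, 5p had more reads than 3p in OGD WT replicates 2 and 4. The median size of the log2 change in the set was 0.51 in WT and 0.49 in KO, against 1.51 and 1.73 for miR-671.

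**Figure D5:**
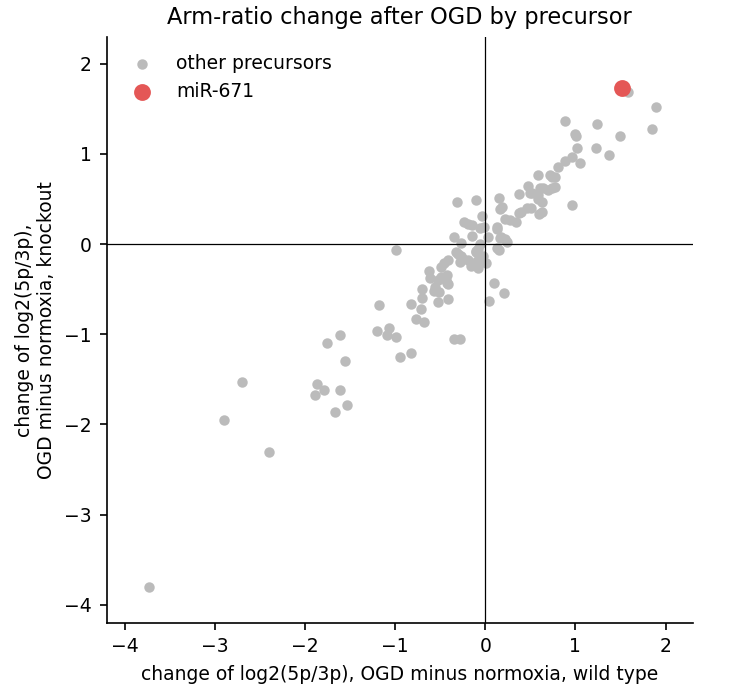
Change of the log2 ratio of 5p to 3p after OGD in WT (x axis) and KO (y axis), 1 point for each of 129 precursors whose arms both had a mean log2 level of at least 2 in both comparisons, with miR-671 marked. miR-671 lies at 1.51 and 1.73, at the 5p end of both axes.

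The arms resembled different microRNAs across the libraries. For miR-671-3p the closest of 421 entries by Pearson's r of log2 levels over 20 libraries were miR-411-3p (0.943), miR-328-3p (0.939) and let-7c-1-3p (0.927). miR-411-3p averaged 496 CPM in N WT and 268 in OGD WT. let-7c-1-3p, a passenger strand of the let-7 family, averaged 71.2 CPM in N WT and 12.9 in OGD WT. For miR-671-5p the likeness was looser, led by miR-19b-3p (0.741), miR-449a-5p (0.729) and miR-19a-3p (0.717). miR-19b-3p averaged 298 CPM in N WT, 496 in OGD WT, 353 in N KO and 647 in OGD KO. These values describe libraries that share depth and treatment, and the 20 libraries fall mostly into normoxic and OGD clusters.

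The other microRNA of the ciRS-7 network is miR-7, for which ciRS-7 has many sites. Of its 5 mature forms, miR-7a-5p was called higher after OGD (log2 difference 0.64 in WT and 0.87 in KO) and miR-7b-3p was called lower (-1.44 in WT and -1.19 in KO), both by limma. The other 3 forms were not called in CPM. Over all entries, 18.7% in WT and 18.8% in KO were called higher and 4.4% and 5.75% lower, so 1 of 5 forms called higher is near the background. With libraries centred on their median entry, miR-7a-5p was not called (0.08 in WT and 0.36 in KO), whereas with quantile normalization it was called higher (0.67 and 0.79). miR-7b-3p was called lower under both scalings in both genotypes, and so was miR-7a-2-3p (-0.88 in WT and -0.83 in KO when centred). Quantile normalization called 12.9% and 12.6% of all entries lower and 9.54% and 9.53% higher. Centring alone also gave lower calls for miR-7b-5p in both genotypes (-0.74 and -0.45) and for miR-7a-1-3p in KO (-0.38). When centred, 17.9% of all entries in WT and 21.9% in KO were called lower. The median log2 difference of the 5 forms was -0.18 in WT, against 0.32 over all entries, and 0.06 in KO, against 0.24. No form passed the adjusted threshold between genotypes or in the interaction. The log2 difference of miR-7a-5p between KO and WT was -0.62 in normoxia (limma, unadjusted p = 0.00129, adjusted p = 0.838) and -0.39 after OGD (limma, unadjusted p = 0.000374, adjusted p = 0.272). For miR-7b-5p the log2 difference in normoxia was -0.33 (limma, unadjusted p = 0.00788, adjusted p = 0.984).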

How the data were processed

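Small RNA was sequenced in 20 libraries (4 groups of 5), made with TRIzol, a NEBNext small RNA kit and size selection, per the labels' protocols. The submitters' processing notes name build mm10. The aligner, the counting rule and the microRNA release are not given in the sources used here. The authors deposited 6 tables, 1 for each pair of groups, described as log CPM, but the values exceed any log2 CPM and the deposited unit is treated as a score. As worked out from the values, reads had been multiplied by a library factor and raised to a power of 0.106 to 0.118, with the extremes of each group of 5 limited at the quantiles 0.16 and 0.84. Undoing both gave whole reads (within 0.05) for 100% of values, the same between tables in 88520 of 88520 comparisons. The recovery and the fits were tested on simulated data.

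CPM used the library size given by the authors' factors. limma 3.58.1 (R 4.3.3; moderated, with a mean trend) was run on log2(CPM + 0.5) in the 10 libraries of each comparison, over all entries, with Benjamini-Hochberg adjustment and a threshold of 0.05. The arm ratio, the log2 difference of both arms on that scale, was fitted over all precursors with an entry for each arm. A filter of mean log2 of at least 3 on both arms had been meant for that fit, but it removed miR-671 in 2 comparisons, where 5p averaged 2.98 and 2.91, so the fit with no filter is reported. Interactions used 20 libraries. Permutation tests were exact and two-sided. Whether same-numbered libraries share a culture is not stated, and these tests and the main limma fits treated them as unpaired. Hairpins were folded with ViennaRNA 2.7.2, and genes are from GENCODE on GRCm38. The closest entries are the 3 with the highest r for each arm. No 2 replicates matched within sampling noise (lowest chi-square per degree of freedom 16.5). The members and lists were chosen with earlier results of these data known.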

Additional observations from a re-analysis of the deposited data

Results flagged for a closer look

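Of 16 groups of 5 values tested (CPM of each arm, both arms summed and the ratio, in 4 groups), 1 held a value far from the others, about what chance gives at 1 in 20. In N WT, miR-671-5p was at 8.88 CPM in replicate 4 and between 6.25 and 6.69 CPM in the other 4 libraries. That library had 47 reads of 5p.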

How the results depend on the processing

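Under the alternatives, 346 values of miR-671 results kept their direction and their side of the threshold, 8 turned sign, 6 newly passed it and 11 no longer passed it. The fall of 3p, the shift of the arm ratio and the fall of both arms together after OGD kept both in WT and KO under every alternative run, with leave-one-out ranges of -1.41 to -1.25 and -1.26 to -1.07 for 3p, 1.41 to 1.72 and 1.61 to 1.80 for the ratio, and -0.89 to -0.79 and -0.72 to -0.52 for the sum. The 5p difference with OGD in WT was -0.37 with libraries centred on their median, -0.44 with quantile normalization and 0.29 (limma adjusted p = 0.0424) with the deposited extremes not restored, which understates the spread (leave-one-out 0.12 to 0.32). In KO it was 0.052 when centred, 0.0015 with quantile normalization and 0.55 with total reads as library size (leave-one-out 0.43 to 0.65). The summed difference of OGD KO and OGD WT was 0.42 when centred, 0.33 with extremes not restored, 0.39 thinned and 0.34 with total reads, all with an adjusted exact permutation p under 0.05 (leave-one-out 0.23 to 0.43). The ratio of N KO to N WT was 0.013 with extremes not restored (leave-one-out -0.16 to 0.048, above 0 without N KO replicate 1, 0.048, or N WT replicate 4, 0.028). The 3p interaction was -0.23 thinned. Leave-one-out ranges were -0.0013 to 0.15 for 5p and 0.06 to 0.20 for 3p between N KO and N WT, and -0.061 (without OGD WT replicate 5) to 0.26 for the ratio between OGD KO and OGD WT (0.55 thinned, 0.038 with extremes not restored), and 0.006 to 0.32 for its interaction (0.77 thinned, 0.025 with extremes not restored), 0.063 to 0.25 for that of 3p and 0.24 to 0.45 for that of 5p. Other moves of over 1.5 times changed no call: between N KO and N WT, 5p was 0.022 centred, 0.035 with quantile normalization and 0.14 with extremes not restored, 3p was 0.045 with quantile normalization and the sum 0.076 centred (leave-one-out 0.059 to 0.16). The 3p interaction was 0.33 and 3p in WT with OGD -1.997 with quantile normalization, and the 5p interaction 0.21 with extremes not restored. The cause of these changes was not tested.

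Counts over all entries moved more than 1.5 times in places: in WT and KO with OGD, 341 and 363 levels were called, against 693 and 784 by limma voom, 518 with extremes not restored and 223 of the 425 left by a filter of 3 in WT, and 233 thinned in KO. Arm ratios were called in 108 and 107 precursors, against 173 and 166 with extremes not restored 61 and 56 thinned, and 62 and 69 of the fewer precursors (100 and 98) left by a filter of 3. Between genotypes, 0 levels became 5 in normoxia and 18 after OGD, and 38 in the interaction, with extremes not restored (1 in the interaction when thinned), and 0 ratios became 20 after OGD and 9 in the interaction. The filter of mean log2 of at least 3 gave no value for the ratio, or for 5p, in WT with OGD or between genotypes in normoxia. A filter of 2, added after seeing the data, changed no miR-671 call and called 74 and 83 ratios, against 69 and 73 of the same precursors. Same-numbered replicates may be paired. Their deviations correlated at -0.166 to 0.657 in WT and -0.211 to 0.491 in KO, 4 of 5 over 0.1 in each. Closest to their own number were 4 of 5 and 3 of 5 libraries. The fit with a replicate block gave the ratio of 1.51 an limma adjusted p of 1.65e-05 and that of 1.73 one of 3.35e-09, and changed no miR-671 call. Over all entries it called 389 levels in WT and 403 in KO, and 120 and 110 ratios. Depth is a limit: 9 to 45 reads of 5p lay behind OGD values.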
